A study of Mus musculus with 12 samples.

Results

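The genes described here are 10 members of the bone morphogenetic protein (BMP) pathway of the mouse. They comprise the ligands Bmp2, Bmp4, Bmp5 and Bmp7, the type II receptor Bmpr2, the target genes Id1, Id2, Id3 and Id4, and the inhibitory SMAD gene Smad6. They were chosen by name out of 55401 genes in the count files, and all 10 were found. RNA-seq was performed on 3 lines of totipotent potential stem (TPS) cells and 3 lines of extended pluripotent stem (EPS) cells, with 2 technical replicate libraries per line. TPS cells were grown on feeders in a medium that the labels name VCED and the methods name CPEC, after its RARγ agonist CD1530, histone deacetylase inhibitor VPA, DOT1L inhibitor EPZ004777 and GSK3 inhibitor CHIR-99021. EPS cells were also grown on feeders, but in LCDM medium. Feeders of TPS cells were mitomycin C-inactivated mouse embryonic fibroblasts, whose RNA can be part of a bulk sample. Whether the sequenced TPS lines came from EPS cells or from 2-cell embryos, and the mouse strain of the lines, is not given in the sources used here.

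BMPs are secreted dimers that bring type I and type II receptor kinases together at the cell surface. The type I receptor then phosphorylates SMAD1, SMAD5 and SMAD9, which enter the nucleus with SMAD4 and switch on target genes, among which the Id genes respond fast and widely. Id proteins bind basic helix-loop-helix factors such as the E proteins and keep them off DNA. In mouse pluripotent cells, Id genes are known as mediators of self-renewal downstream of BMP, and in the early embryo BMP4 patterns the extraembryonic tissues and the mesoderm.

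The EPS libraries held 13676051 to 20077288 counts and the TPS libraries 14652746 to 21821707, and the libraries of a line were summed. The labelled cell types were checked against marker genes. The 6 genes of the 2-cell-like list, which holds Zscan4c and Zfp352, summed to between 124 and 158 CPM (counts scaled to a common library total) in TPS lines and to at most 0.142 CPM in EPS lines. The 7 pluripotency genes summed to between 2398 and 2504 CPM in TPS lines and between 3714 and 4651 CPM in EPS lines. TPS line 2 stood apart in the keratin genes Krt8, at 243 CPM, and Krt18, at 198 CPM. They bring its trophectoderm list to 589 CPM, where TPS lines 1 and 3 had 144 and 217 CPM. The other 5 genes of that list summed to 130, 149 and 158 CPM in TPS lines 1, 2 and 3. Among EPS lines, the libraries of line 3 differed most from each other, with a chi-square of 22.3 per degree of freedom against 2.58 to 9.61 in the other pairs.

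Across the pathway members, Bmp2 and Bmpr2 rose in TPS cells and Id4 fell. Bmp4, Bmp7, Id1, Id2, Id3 and Smad6 did not pass the threshold, which was an adjusted p under 0.05 in edgeR's quasi-likelihood test over all 17468 tested genes. Bmp5 was at or near 0 in every line and was not tested. Of the 9 tested members, 2 were therefore called higher and 1 lower, where 14.4% of all tested genes were called higher and 7.34% lower. Bmp2, Bmpr2 and Smad6 were above every EPS line in every TPS line, and Id4 was below, while 23.6% of all tested genes had every TPS line above and 19.1% had every TPS line below. The groups thus did not overlap in 4 of the 9, against 42.7% of all tested genes. Without TPS line 2, EPS line 1 or EPS line 3, 1 member was called higher, which was Bmpr2. Without EPS line 2, the 2 called higher were Bmpr2 and Id1, and Bmp2 was not called. Id4 was called lower in each of these fits. The median log2 fold change of the 9 was 0.85 and that of all tested genes was -0.00376. These are bulk samples, so fewer cells that express a gene and less of its RNA per cell cannot be told apart.

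**Figure D1:**
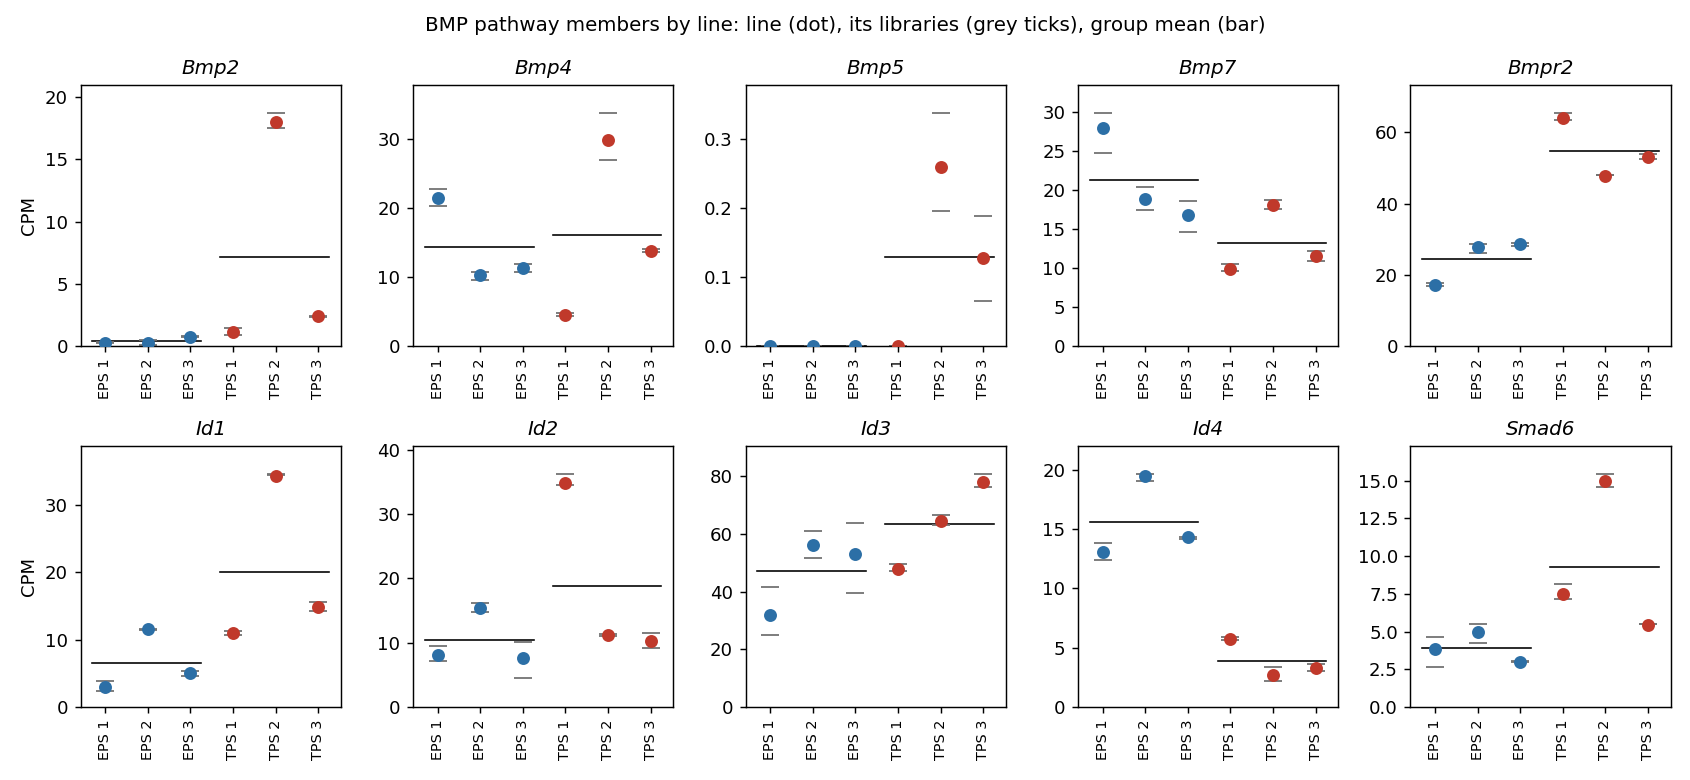
Level of each member in CPM (vertical axis, linear, starting at 0) in the 3 EPS lines (blue) and the 3 TPS lines (red), with a dot for the line, grey ticks for its 2 technical replicate libraries and a bar for the group mean. Bmp2 is highest in TPS line 2 at 18.0 CPM, Bmpr2 is above every EPS line in all TPS lines, and Id4 is below every EPS line.

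Id4 was the only member called lower, and Smad6 is a textbook target of BMP-activated SMADs, so the sequences just before their start sites are shown. They are the 250 bases upstream of the RefSeq start on GRCm38.p6, written 5′ to 3′ on the strand of the gene. RefSeq promoter windows were matched for 7 of the 10 members. Capitals mark the palindrome GGCGCC, to which the BMP-activated SMADs are known to bind. Id4 lies on the plus strand, with its window at chr13:48260866-48261115, and Smad6 on the minus strand, with its window at chr9:64022060-64022309.
Id4: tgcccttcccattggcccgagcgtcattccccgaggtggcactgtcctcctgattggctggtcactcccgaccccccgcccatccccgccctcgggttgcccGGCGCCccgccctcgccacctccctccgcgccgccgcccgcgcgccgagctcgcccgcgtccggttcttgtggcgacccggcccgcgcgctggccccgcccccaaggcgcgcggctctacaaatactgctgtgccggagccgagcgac
Smad6: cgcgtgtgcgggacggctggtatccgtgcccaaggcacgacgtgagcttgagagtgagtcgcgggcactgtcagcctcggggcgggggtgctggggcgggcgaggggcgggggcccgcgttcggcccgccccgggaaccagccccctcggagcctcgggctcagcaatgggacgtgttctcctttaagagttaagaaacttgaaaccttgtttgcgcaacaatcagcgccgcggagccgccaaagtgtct

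The Id4 window held GGCGCC once, with its first base at position -148 from the start site, and the Smad6 window did not hold these letters. Among the other matched members, Bmpr2 held it at -105 and Id2 at -231. GGCGCC reads the same on both strands, and it was present in 9.59% of all 32851 RefSeq promoter windows of this length. The SMAD box, GTCTG or CAGAC on the given strand, was found at -167 and -68 in the Id3 window and at -134 in the Bmp5 window, against 42.2% of all windows. Among the matched members, the E-box CACCTG or CAGGTG was found in the Bmp4 window alone, at -177, against 17.2% of all windows. The members with GGCGCC included Bmpr2, which rose, Id4, which fell, and Id2, which did not pass the threshold. The windows of Bmpr2, Id2 and Id3 lie within the gene bounds of the GENCODE annotation, past the start given there. A match describes the letters and shows no binding.

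Bmp2 and Bmp4 are the closest pair among the ligands and can both signal as homodimers or together with BMP7. Bmp2 (ENSMUSG00000027358.6) lies at chr2:133552159-133562885 on the plus strand of GRCm38. Its level was 1.15, 18.0 and 2.38 CPM in TPS lines 1, 2 and 3, and 0.294, 0.265 and 0.768 CPM in EPS lines 1, 2 and 3. TPS line 2 was far above the others, in both of its libraries, and the lowest TPS line was still above the highest EPS line. The counts behind these values were 46 to 696 in TPS lines and 9 to 27 in EPS lines. The fitted difference was 4.00 ± 1.10 (SE, n = 3 lines per group) on the log2 scale, a 16.1-fold higher level in TPS cells, with an edgeR adjusted p of 0.0379. The call did not hold when TPS line 2 was left out, where the log2 difference was 1.97 and the edgeR adjusted p 0.0763. It was also lost without EPS line 1 (0.112), EPS line 2 (0.113) or EPS line 3 (0.0621), in edgeR adjusted p, and the difference stayed positive in all alternatives, whose adjusted p ranged from 0.000903 to 0.121.

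Bmp4 (ENSMUSG00000021835.15, chr14:46383520-46390669, minus strand) is the ligand best known from the extraembryonic ectoderm of the early embryo. It measured 4.50, 29.9 and 13.8 CPM in the TPS lines and 21.4, 10.2 and 11.3 CPM in the EPS lines. TPS lines held both the lowest and the highest value, so the groups overlapped fully. Its log2 difference of 0.17 ± 0.61 had an edgeR adjusted p of 0.871, and its sign turned to -0.65 when TPS line 2 was left out and to -0.04 when EPS line 2 was left out.

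Bmp7 (ENSMUSG00000008999.7, chr2:172868012-172940321, minus strand), a ligand of the other main BMP subgroup, measured 9.94, 18.1 and 11.5 CPM in the TPS lines and 28.0, 18.9 and 16.9 CPM in the EPS lines. EPS line 1 was the highest and TPS line 1 the lowest, and the groups overlapped only in TPS line 2, which was above EPS line 3. A log2 difference of -0.69 ± 0.30 did not pass the threshold, with an edgeR adjusted p of 0.136, and it was negative in all alternatives.

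Bmp5 (ENSMUSG00000032179.7, chr9:75775364-75900310, plus strand), a close relative of Bmp7, was counted 0, 10 and 4 times in the TPS lines and not at all in the EPS lines. It did not pass the filter on low counts. A count of 0 allows up to 3 counts, which is at most 0.0979 CPM in an EPS line. The TPS values were 0, 0.259 and 0.127 CPM. TPS line 3 was thus close to that limit, and TPS line 2 was farther above it, on 10 counts. Bmp5 shares 1878 exonic bases with the antisense gene Gm26903, which had 12 counts over all libraries against 14 for Bmp5, and reads of these genes cannot be told apart if strand was not used in counting.

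Set side by side per length of exon, the member ligands in the EPS lines were almost all Bmp4 and Bmp7. Bmp2 was 1.20% ± 0.961 (SD, n = 3) of the summed CPM per kb of these ligands in EPS cells and 11.9% ± 8.82 in TPS cells, with 22.1% in TPS line 2. Bmp4 had the highest mean share in both groups, at 53.2% ± 4.32 in EPS cells and 54.3% ± 11.2 in TPS cells. Bmp7 exceeded it in TPS line 1, with 51.6% against 41.7%, and in EPS line 2, with 50.4% against 48.8%. The sum itself was 4.80, 22.9 and 9.68 CPM per kb in the TPS lines and 16.6, 9.33 and 9.43 CPM per kb in the EPS lines. TPS lines were again both the lowest and the highest.

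Bmpr2 (ENSMUSG00000067336.6, chr1:59763400-59879014, plus strand) encodes the type II receptor that is dedicated to BMP ligands and activates the type I kinase. It measured 63.9, 47.7 and 53.0 CPM in the TPS lines and 17.3, 27.8 and 28.7 CPM in the EPS lines. Every TPS line was well above every EPS line. The difference of 1.16 ± 0.23 on the log2 scale is a 2.23-fold higher level, with an edgeR adjusted p of 0.013. Bmpr2 passed in all 16 alternatives, with log2 differences from 0.93 to 1.30. Fibroblast markers moved with this gene. All 16 genes of the fibroblast list, which includes collagens and other matrix genes, had a positive difference. Of these 16, 11 were called higher, against 14.4% of all tested genes. The list summed to 6133, 3453 and 3547 CPM in the TPS lines and 338, 1285 and 1370 CPM in the EPS lines. TPS line 1 was thus highest and EPS line 1 lowest for both the fibroblast sum and Bmpr2. The part of feeder RNA in the Bmpr2 difference was not tested.

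Id1 (ENSMUSG00000042745.9, chr2:152736251-152737410, plus strand) is the Id gene most used as a readout of BMP signalling. It measured 10.9, 34.3 and 14.8 CPM in the TPS lines and 3.00, 11.6 and 4.98 CPM in the EPS lines. TPS line 2 was the highest, and the groups overlapped because EPS line 2 was slightly above TPS line 1. The log2 difference of 1.62 ± 0.59, a 3.06-fold ratio, missed the threshold with an edgeR adjusted p of 0.0878. It passed without EPS line 2, at 2.30 with an edgeR adjusted p of 0.049, and was 0.97 with 0.257 without TPS line 2. DESeq2 called it, with an adjusted p of 0.0126, and over all alternatives the adjusted p ranged from 0.00693 to 0.257 and the difference was positive.

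Id2 (ENSMUSG00000020644.9, chr12:25093799-25097140, minus strand) is known in the early embryo from trophectoderm precursors. It measured 34.9, 11.1 and 10.2 CPM in the TPS lines and 8.13, 15.4 and 7.57 CPM in the EPS lines. TPS line 1 alone stood above the rest, and TPS lines 2 and 3 lay within the EPS range. The log2 difference was 0.85 ± 0.52 with an edgeR adjusted p of 0.276, and it came down to 0.04 without TPS line 1.

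Id3 (ENSMUSG00000007872.3, chr4:136143497-136145755, plus strand) acts much like Id1 and is often expressed with it. It measured 48.0, 64.4 and 78.1 CPM in the TPS lines and 32.0, 56.0 and 53.1 CPM in the EPS lines. TPS line 1 lay inside the EPS range and the other TPS lines above it. With a log2 difference of 0.43 ± 0.26, Id3 did not pass (edgeR adjusted p 0.265). The libraries of EPS line 3 gave 39.6 and 63.9 CPM, which is wider apart than EPS lines 2 and 3 are from each other.

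Id4 (ENSMUSG00000021379.2, chr13:48261228-48266026, plus strand) is the most divergent of the Id genes and is known mainly from the nervous system and spermatogonia. It measured 5.75, 2.72 and 3.27 CPM in the TPS lines and 13.1, 19.5 and 14.3 CPM in the EPS lines. The highest TPS line was less than any EPS line. On the log2 scale Id4 fell by 1.99 ± 0.34, a 3.98-fold lower level in TPS cells, with an edgeR adjusted p of 0.00861. It passed in all 16 alternatives, between -2.38 and -1.79, with an adjusted p of at most 0.0341. Antisense genes that overlap Id4 had 12 and 2 counts over all libraries against 2002 for Id4.

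**Figure D2:**
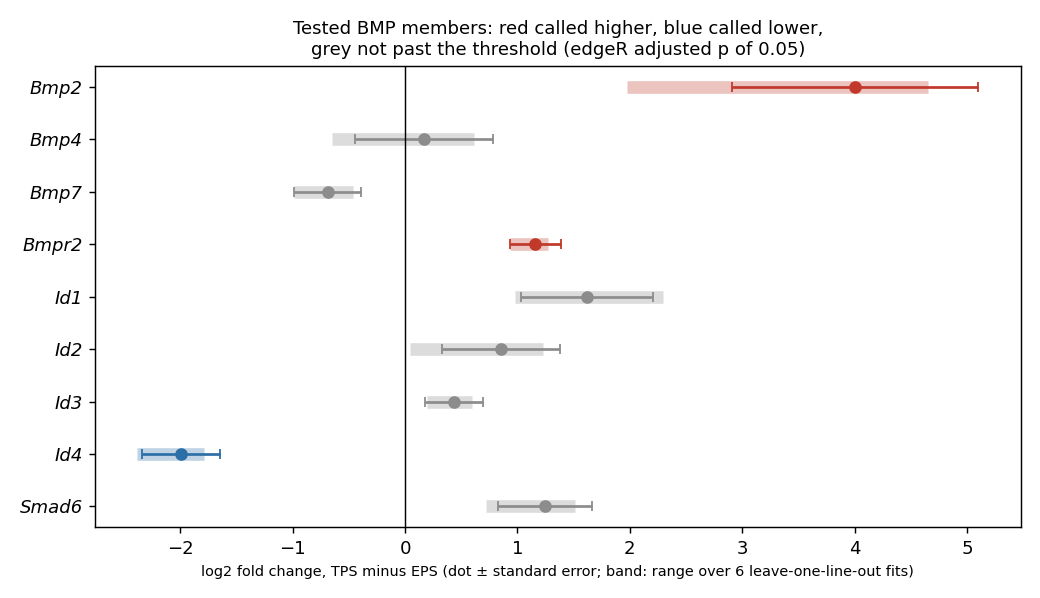
Log2 fold change of TPS minus EPS (horizontal axis) for the 9 tested members, with the standard error as whiskers, the range over 6 fits that each leave out 1 line as a pale band, and the call as color (red higher, blue lower, grey not past the threshold). The band of Bmp4 alone crosses 0, that of Id2 comes down to 0.04, and that of Bmp2 runs from 1.97 to 4.66. The bands of Bmpr2 and Id4 stay away from 0, as do those of Bmp7, Id1, Id3 and Smad6, which were not called.

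Of the Id genes, Id4 alone passed the threshold, and its estimate was negative where those of Id1, Id2 and Id3 were positive. Per kb of exon, Id1 to Id4 together summed to 52.0, 70.8 and 61.4 CPM per kb in the TPS lines and 27.2, 52.7 and 40.7 CPM per kb in the EPS lines. The sums overlapped by little, EPS line 2 lying just above TPS line 1. Id3 made up the largest part in every line, at 57.8% ± 11.5 (SD, n = 3) in TPS cells and 65.9% ± 6.66 in EPS cells. Id4 was 10.4% ± 1.82 of the sum in EPS cells and 1.75% ± 0.988 in TPS cells, and its highest TPS share of 2.87% was below its lowest EPS share of 9.13%. Id1 took 41.8% in TPS line 2, and Id2 took 27.5% in TPS line 1. EPS line 2 had the highest level of each of Id1, Id2, Id3 and Id4 among the EPS lines.

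**Figure D3:**
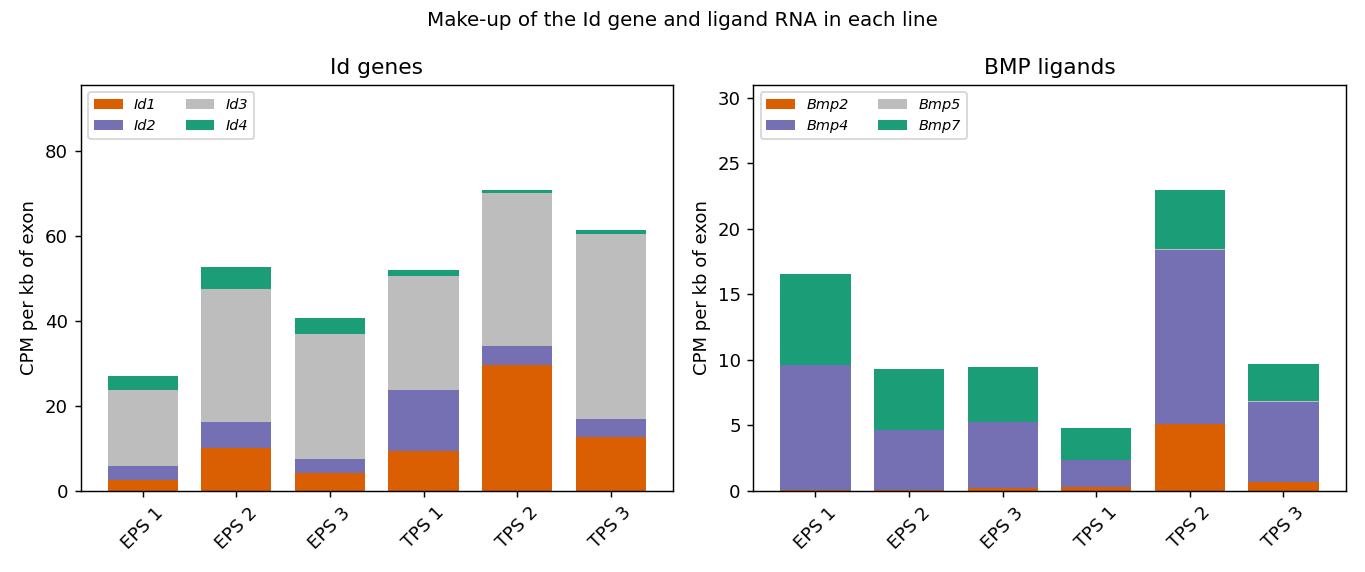
Stacked bars of CPM per kb of exon (vertical axis) in each of the 6 lines for the Id genes (left) and the BMP ligands (right), with a color per gene. Id3 is the largest segment of the Id bars, the Id4 segment is 9.13% or more of each EPS bar and at most 2.87% of each TPS bar, and Bmp2 is clearly visible only in TPS line 2.

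Smad6 (ENSMUSG00000036867.7, chr9:63953076-64022059, minus strand) encodes an inhibitory SMAD that BMP signalling induces and that acts back on the receptor and on SMAD1. It measured 7.50, 15.0 and 5.47 CPM in the TPS lines and 3.85, 4.94 and 2.99 CPM in the EPS lines. Every TPS line was above every EPS line, although TPS line 3 was above EPS line 2 by little. The log2 difference of 1.24 ± 0.42, a 2.37-fold ratio, had an edgeR adjusted p of 0.0708 and did not pass. It was 0.72 with an edgeR adjusted p of 0.207 without TPS line 2. DESeq2 called it, with an adjusted p of 0.0151, and over all alternatives the adjusted p ranged from 0.00334 to 0.207.

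Ordered by mean level per kb of exon, Id3 led both groups, at 35.5 ± 8.43 CPM per kb (SD, n = 3) in TPS cells and 26.3 ± 7.31 in EPS cells. In TPS cells Id1, Id2, Bmp4, Bmp7, Bmpr2, Smad6, Bmp2 and Id4 followed in that order, from 17.3 down to 1.02 CPM per kb. Each of these overlapped its neighbour over the lines, and Bmp5 lay below them all at 0.032 CPM per kb. In EPS cells Bmp4, Id1, Bmp7, Id2 and Id4 formed a group of overlapping neighbours between 6.37 and 4.06 CPM per kb. Bmpr2 at 1.37 and Smad6 at 1.23 CPM per kb overlapped each other below that group, and Bmp2 at 0.124 CPM per kb and Bmp5 at 0 were each apart from the gene above. By these means Id4 was in the group of Bmp4 and Bmp7 in EPS cells and below all members but Bmp5 in TPS cells. Its place below Bmp2 rests on TPS line 2, since Bmp2 was at 0.323, 5.07 and 0.67 CPM per kb in TPS lines 1, 2 and 3 against 1.49, 0.707 and 0.85 CPM per kb for Id4.

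The rest of the pathway was read from a list of 49 further genes, of which 41 were tested. Of these, 12 were called higher and 1 lower, and 28 did not pass, with a median log2 difference of 0.39. The 12 came down to 5 without TPS line 3 or EPS line 2, to 7 without EPS line 1 and to 8 without EPS line 3. Among all tested genes, 14.4% were called higher and 7.34% lower, or 21.7% in either direction. The called genes spread over ligands, receptors, co-receptors, transducers, extracellular inhibitors and targets, while none of the 4 intracellular inhibitors and none of the 3 E protein genes was called.

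**Figure D4:**
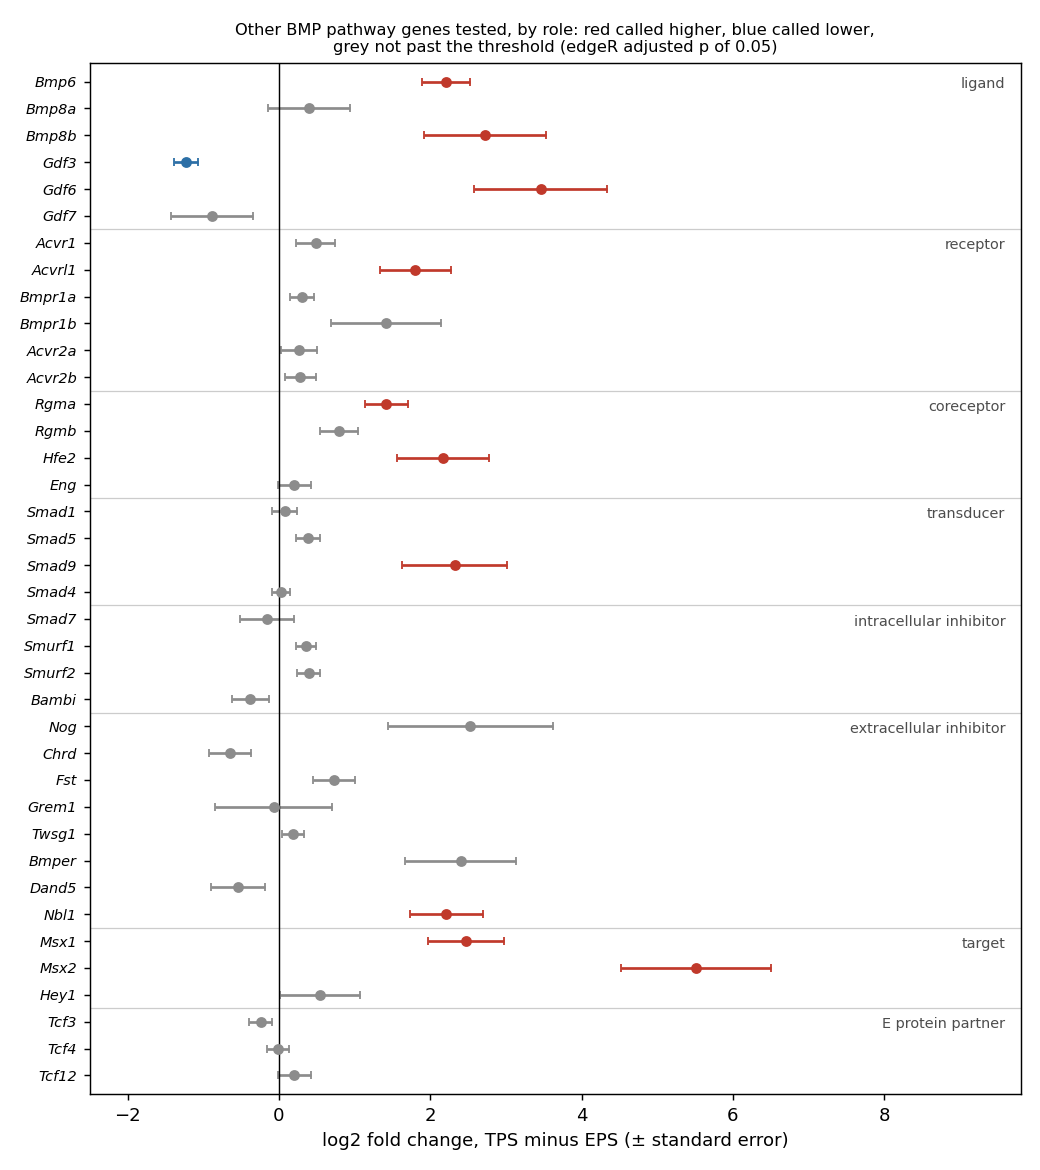
Log2 fold change of TPS minus EPS (horizontal axis, with the standard error as whiskers) for 38 of the 41 tested genes of the wider list (the 3 not drawn include Chrdl1 and Atoh8, at the floor in EPS cells), arranged by role, in red where called higher, blue where called lower and grey where not past the threshold. Msx2 lies farthest to the right, with few counts in EPS cells, Gdf3 is the single blue point, and Smad4 and the E protein genes lie between -0.24 and 0.21.

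Among the 11 further ligands, 6 were tested, 3 were called higher and 1 lower. Bmp6, of the same subgroup as Bmp5 and Bmp7, measured 4.75, 7.26 and 5.05 CPM in the TPS lines and 1.08, 1.24 and 1.37 CPM in the EPS lines. Its log2 difference of 2.21 ± 0.32 had an edgeR adjusted p of 0.00505 and held in all alternatives, although Bmp6, with 752 counts over all libraries, shares 224 exonic bases with Txndc5 on the other strand, with 34446 counts. Gdf6, a ligand of the limb and skeleton, measured 11.9, 2.44 and 12.4 CPM in the TPS lines and at most 1.51 CPM in the EPS lines, with a log2 difference of 3.46 and an edgeR adjusted p of 0.0304. Bmp8b, known from germ cell specification, measured 0.849, 6.35 and 1.46 CPM in the TPS lines and 0.256 to 0.559 CPM in the EPS lines. Its log2 difference of 2.72 passed narrowly (edgeR adjusted p 0.048), and was 1.40 with an edgeR adjusted p of 0.124 without TPS line 2. It shares exonic bases with Ppie.

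Gdf3, a NODAL-like ligand of pluripotent cells that can also inhibit BMPs, fell in TPS cells. It measured 39.6, 41.4 and 47.9 CPM in the TPS lines and 85.5, 117 and 98.8 CPM in the EPS lines. The lines were well apart, and the log2 difference of -1.22 ± 0.16 had an edgeR adjusted p of 0.00368, with the call kept in all alternatives. Bmp8a and Gdf7 were tested and not called, and Bmp3, Bmp10, Bmp15, Gdf2 and Gdf5 did not pass the filter on low counts.

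Of the other receptors, 1 of 6 was called. Acvrl1, the endothelial type I receptor ALK1, measured 41.2, 13.6 and 36.7 CPM in the TPS lines and 5.32 to 12.9 CPM in the EPS lines. TPS line 2 was only just above EPS line 2. The log2 difference was 1.80 ± 0.47 with an edgeR adjusted p of 0.0326, a 3.49-fold ratio. The main type I receptor gene Bmpr1a had the highest mean level of them per kb of exon in both groups. It measured 75.8 to 92.6 CPM in the TPS lines and 58.1 to 80.6 CPM in the EPS lines, and was not called (log2 difference 0.31, edgeR adjusted p 0.207). Acvr1, Acvr2a and Acvr2b had log2 differences of 0.49, 0.26 and 0.29 and were not called. Bmpr1b had a larger log2 difference of 1.41, but its lines overlapped and it was not called (edgeR adjusted p 0.199).

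Of the co-receptors, Rgma and Hfe2, members of the repulsive guidance molecule family that binds BMP2 and BMP4, were called higher. Rgma measured 20.0, 12.3 and 20.2 CPM in the TPS lines and 6.89, 4.97 and 7.74 CPM in the EPS lines (log2 difference 1.42 ± 0.28, edgeR adjusted p 0.0137). Hfe2 (hemojuvelin) reached at most 2.22 CPM in any line, with a log2 difference of 2.17 and an edgeR adjusted p of 0.0409. Their relative Rgmb had every TPS line above every EPS line and a log2 difference of 0.79 that did not pass (edgeR adjusted p 0.0626). Eng, an endothelial co-receptor, measured 40.6 to 54.3 CPM in the TPS lines and 30.3 to 50.1 CPM in the EPS lines and was not called.

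Of the 4 SMAD genes that carry the signal, Smad9 alone was called, and it had the lowest level per kb of exon. Smad9 measured 2.65, 1.37 and 1.30 CPM in the TPS lines and 0.751, 0.177 and 0.142 CPM in the EPS lines, with a log2 difference of 2.32 and an edgeR adjusted p of 0.0488. Smad1 had a log2 difference of 0.08 ± 0.16, Smad4 of 0.03 ± 0.12, and Smad5 of 0.39 ± 0.16, and none passed (edgeR adjusted p 0.764, 0.903 and 0.123). The intracellular inhibitors other than Smad6 were all tested and not called. Smad7, the inhibitory SMAD shared with TGF-β signalling, measured 64.5, 55.7 and 109 CPM in the TPS lines and 93.5, 113 and 48.7 CPM in the EPS lines. The lines of each group were far apart for Smad7, and its log2 difference was -0.16 ± 0.35. The ubiquitin ligase genes Smurf1 and Smurf2 had log2 differences of 0.35 and 0.39 with every TPS line above every EPS line, and the pseudoreceptor gene Bambi had -0.38.

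Among extracellular inhibitors, 10 of 13 were tested and 2 were called, both higher. Nbl1 (DAN) measured 15.1, 10.4 and 14.5 CPM in the TPS lines and 1.08, 3.24 and 4.27 CPM in the EPS lines, with a log2 difference of 2.22 ± 0.48 and an edgeR adjusted p of 0.0174. Chrdl1, a chordin relative, measured 0.575, 0.544 and 0.477 CPM in the TPS lines and was counted at most 2 times in an EPS line, so it was near the floor of EPS cells and no fold is given (edgeR adjusted p 0.0104). Grem1 varied from 6.32 to 45.9 CPM in the TPS lines and from 7.90 to 50.3 CPM in the EPS lines and was not called. Fst had a log2 difference of 0.73 and Twsg1 of 0.19, and neither was called.

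Of 4 further BMP targets, 3 were called higher, against 14.4% of all tested genes. The homeobox gene Msx2 measured 1.60, 14.1 and 3.78 CPM in the TPS lines and 0.0653, 0.0883 and 0.256 CPM in the EPS lines. Every TPS line was well above the EPS lines and TPS line 2 was again the highest. The EPS levels rest on 2 to 9 counts per line, with 3 counts or fewer in EPS lines 1 and 2, so the size of the difference is poorly set. The fitted log2 difference was 5.51 ± 0.99 with an edgeR adjusted p of 0.00961, and 4.24 with 0.0139 without TPS line 2. Its paralog Msx1 measured 1.25, 3.63 and 2.67 CPM in the TPS lines and 0.457, 0.324 and 0.569 CPM in the EPS lines (log2 difference 2.47 ± 0.51, edgeR adjusted p 0.0146). Atoh8 measured 0.375, 3.29 and 0.350 CPM in the TPS lines and was counted at most 1 time in an EPS line, so no fold is given (edgeR adjusted p 0.0185). Hey1, which also answers to NOTCH, measured 5.22, 6.61 and 3.69 CPM in the TPS lines and 1.34, 6.06 and 3.19 CPM in the EPS lines and was not called. The E protein genes Tcf3, Tcf4 and Tcf12, whose products the Id proteins bind, had log2 differences of -0.24, -0.01 and 0.21 and were not called.

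**Figure D5:**
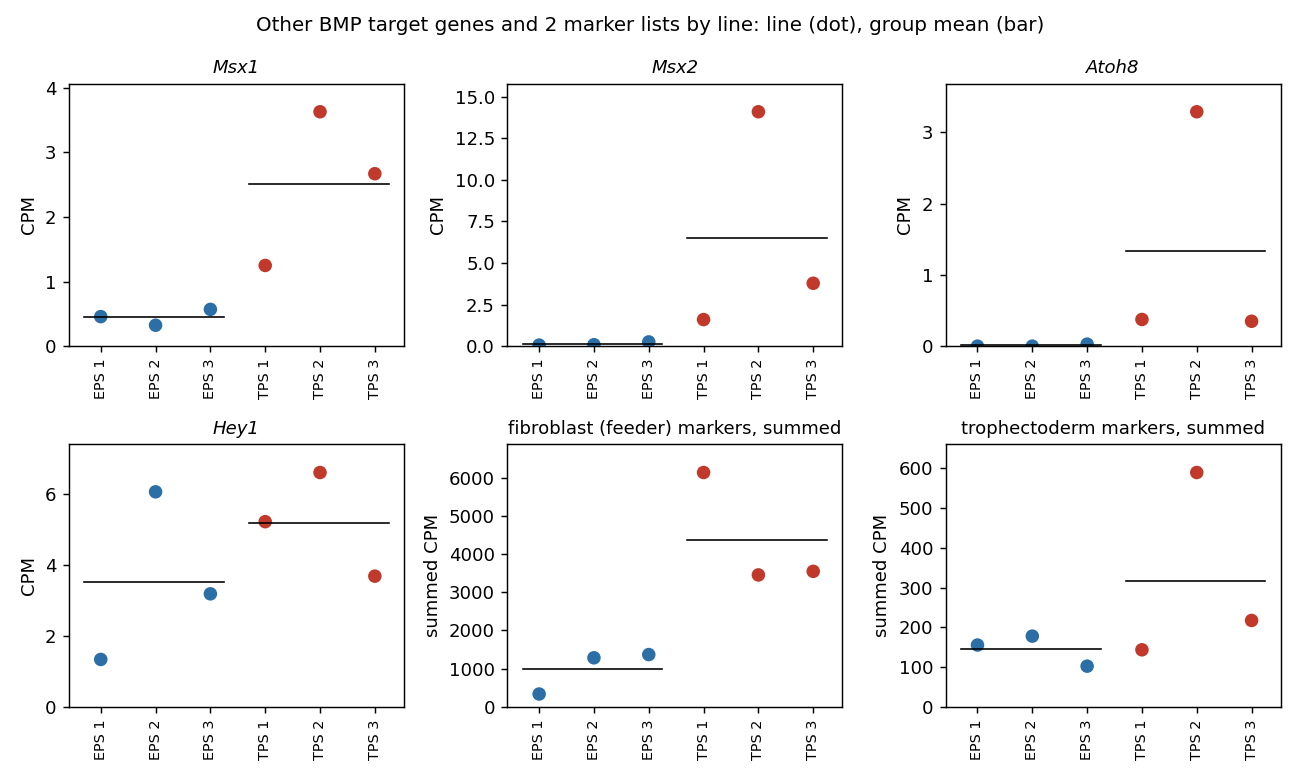
Level in CPM of the further targets Msx1, Msx2, Atoh8 and Hey1, and the summed CPM of the fibroblast and trophectoderm marker lists, in the 3 EPS lines (blue) and 3 TPS lines (red), with bars for group means and linear axes from 0. TPS line 2 is highest for the 4 targets and for the trophectoderm sum of 589 CPM, while TPS line 1 is highest for the fibroblast sum of 6133 CPM.

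Several of the calls on the wider list changed with a single line. Gdf6 did not pass without TPS line 1, TPS line 3, EPS line 1 or EPS line 2 (edgeR adjusted p 0.0741, 0.083, 0.0566 and 0.0914), and Acvrl1 did not without TPS line 1, TPS line 3, EPS line 1 or EPS line 3 (0.092, 0.0925, 0.0904 and 0.0849). Among the fits that leave out a line, Bmp8b and Hfe2 passed only without TPS line 1 and Smad9 only without EPS line 1, and in the other 5 fits the edgeR adjusted p was 0.0635 to 0.124 for Bmp8b, 0.0676 to 0.119 for Hfe2 and 0.0713 to 0.138 for Smad9. Atoh8 did not pass without any of EPS lines 1, 2 and 3 (edgeR adjusted p 0.0632, 0.0656 and 0.0582). Rgma did not without TPS line 3 (0.0512), Msx1 without EPS line 2 (0.055), and Nbl1 without TPS line 3 (0.053) or EPS line 2 (0.0553). Bmp6, Gdf3, Chrdl1 and Msx2 passed in every fit that left out a line.

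The marker lists give the company in which these genes moved. TPS line 2, which had the highest Bmp2, Bmp4, Bmp7, Id1, Smad6, Msx1, Msx2, Atoh8 and Bmp8b among TPS lines, also had the highest Krt8 and Krt18 and, through these, the highest trophectoderm sum. Of the other 5 genes of that list, Cdx2, Eomes and Tfap2c were highest among TPS lines in line 3, Gata3 in line 2 and Elf5 in line 1. Eomes and Tfap2c were higher still in EPS line 2. TPS line 1, which had the highest Bmpr2, Id2 and Id4 among TPS lines, had the highest fibroblast sum. In EPS line 1, which had the lowest fibroblast sum of 338 CPM, Bmpr2, Acvrl1, Gdf6, Nbl1 and Grem1 were each at their lowest among EPS lines. So were other genes, among them Id1, Id3, Id4 and Bmp6, whereas Rgma and Smad9, both called higher, were not. Of the trophectoderm list, 6 of 7 genes were tested and Cdx2 and Gata3 were called higher, with 0.675, 3.65 and 9.37 CPM of Cdx2 in the TPS lines and at most 0.541 CPM in the EPS lines. The primitive endoderm list summed to 112, 55.5 and 83.0 CPM in the TPS lines and 18.3, 23.6 and 30.5 CPM in the EPS lines, with 4 of 7 genes called higher. Pdgfra is on both this list and the fibroblast list, and without it the primitive endoderm sum was 62.9, 43.0 and 51.8 CPM in the TPS lines and 15.9, 17.5 and 22.1 CPM in the EPS lines. Gata4 and Sox7 of this list were not called. The mesoderm list summed to 6.05, 35.7 and 38.1 CPM in the TPS lines and 9.47, 8.65 and 12.0 CPM in the EPS lines, with 1 of 5 tested genes called higher. Of the 7 tested pluripotency genes, Pou5f1, Esrrb and Tdgf1 were called lower and none higher, and Id4 and Gdf3 were also called lower. Among all tested genes, 14.4% were called higher and 7.34% lower. The part of the listed cell types in the pathway differences was not tested.

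For each called member, the tested genes with the nearest profile over the 6 lines were found by the Euclidean distance between log2(CPM + 1) values centred on their mean. Nearest to Bmp2 were Hand1, a transcription factor of trophoblast and mesoderm, at a distance of 0.48, and Tgfb2 at 0.68. Hand1 measured 0.275, 12.7 and 1.72 CPM in the TPS lines and at most 0.256 CPM in the EPS lines, with TPS line 2 the highest as for Bmp2. Nearest to Bmpr2 were Mef2c at 0.163 and Cerk at 0.184, and nearest to Id4 were Abcg1 at 0.268 and Slc17a9 at 0.351. The distances describe 6 lines in 2 groups, and a shared difference between the groups alone brings genes close.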

How the data were processed

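RNA was extracted from 3 TPS and 3 EPS lines, selected for poly(A) tails with oligo(dT) beads, and read from both ends in 2 technical replicate libraries per line. The submitters' processing notes name fastp 0.19.7 and STAR 2.7.3a with mm10. The authors deposited raw counts per gene, without normalization, in a file per library. The counting tool, annotation release, use of strand and handling of multiply mapped reads are not given in the sources used here, so reads of overlapping or antisense genes may be shared. The authors' DESeq2 and TPM values were not used.

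Libraries were grouped by their labels, and the counts of a line were summed. The libraries of each line differed beyond counting noise (chi-square per degree of freedom 2.58 to 22.3), so neither was a repeat of the other. Of 55401 gene identifiers, 55141 matched GENCODE M21 (GRCm38) without the version, and 32608 genes had a count. P-values measure the spread between these lines, whose independence the labels do not describe further.

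TPS and EPS lines were compared with edgeR 4.0.16 in R 4.3.3 (quasi-likelihood test, TMM factors, filterByExpr with a minimum count of 10 and total of 15), with Benjamini-Hochberg adjustment over 17468 genes and a threshold of 0.05. CPM are counts scaled by the line's total over tested genes times its TMM factor. CPM per kb divides by the union of exons. The SE is the log2 fold change over the square root of F. Floors of 3 counts cover counting error only, since the reads carry no molecular identifiers and may repeat a molecule. The test was tried on simulated counts first. Alternatives were DESeq2 1.42.0, limma-voom (limma 3.58.1), RLE and upper quartile factors, library size alone, no filter, 12 separate libraries, either technical replicate alone, a replicate block, and leaving out each line. No near-identical copy (95% identity over 50% of a transcript, blastn 2.17.0) of the 10 members was found. Promoter windows and start sites are from RefSeq (GRCm38.p6).

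The members, gene lists and tests were chosen with earlier results of these data known. Named were all members, further pathway genes past the threshold or with a mean of at least 10 CPM, the 2 genes nearest in profile to each called member, and the marker lists. Bmp8a, Gdf7, Bmpr1b, Hey1, Txndc5, Ppie, the ligands that failed the filter and single marker genes were named after their values were seen, to account for counts. Of the tested pathway genes, the values of 1 are neither reported nor drawn here, though the counts include it. Values of some pathway genes that failed the filter on low counts are not given either.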

Additional observations from a re-analysis of the deposited data

How the results depend on the processing

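Bmpr2 and Id4 kept their direction and their call in all 16 alternatives. The number of members called higher, 2 in the edgeR fit on lines, was 4 with DESeq2, 4 without the filter on low counts, 4 with 12 libraries as separate samples (which treats technical replicates as independent), 3 with technical replicate 1 alone, 1 with limma-voom, and 1 to 2 when a line was left out. The number called lower, 1, was 2 with 12 separate libraries, where Bmp7 had an adjusted p of 0.0186. On the wider list, 12 were called higher and 1 lower, against 20 and 2 with 12 separate libraries. The number called higher was 17 with DESeq2, 16 with library size alone or no filter, 13 with upper quartile factors, 9 with limma-voom or technical replicate 1 alone and 8 with technical replicate 2 alone, and 5 to 12 were called higher when a line was left out. The fits differ in the samples and genes they hold, and the cause of these changes was not tested.

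The log2 difference of Bmp4 reversed to -0.14 with limma-voom and ranged from -0.65 to 0.61 when a line was left out. Other reversals were in genes that did not pass. Leaving out a line gave -0.00392 to 0.32 for Eng, -0.67 to 0.60 for Grem1, -0.0523 to 0.0637 for Smad4, -0.51 to 0.0901 for Smad7, -0.0425 to 0.38 for Tcf12 and -0.13 to 0.0864 for Tcf4. Scaling by library size alone gave 0.0477 for Grem1 and 0.13 for Tcf4, and upper quartile factors 0.0385 for Tcf4. Technical replicate 1 alone gave 0.14 for Grem1, and technical replicate 2 alone -0.0137 for Smad1, -0.0242 for Smad4 and 0.00875 for Tcf4. Without the filter Smad4 was at -0.00475, and with 12 separate libraries Tcf4 was at 0.00762. Scaling by library size alone moved the median of all genes to 0.14 and the share of calls that were higher from 66.2% to 80.0%.

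Whether a TPS line is related to the EPS line of the same number is not given in the sources used here. Same-numbered lines had correlations of 0.024, -0.116 and 0.0423 in their deviations from the group means. Lines of different numbers had -0.244 to 0.231. With 3 lines per group, these correlations cannot decide whether the lines are paired. With a replicate block, Bmp2 was no longer called (adjusted p 0.0959), Id1 was (0.0149), Bmp4 was at -0.0746, and 8 genes of the wider list were called higher. Over all genes the block gave 1714 higher and 721 lower, against 2509 and 1282. Depth limits Bmp2 in EPS lines (9 to 27 counts), Msx2 in EPS lines (2 to 9 counts), Bmp5, Chrdl1 and Atoh8.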

Other observations

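Low-level members of the wider list that were too sparse to test still had values. Bmp3 was counted 3 to 62 times in the TPS lines and at most 1 time in an EPS line, or 0.075, 1.61 and 0.127 CPM in TPS lines 1, 2 and 3. Sost, an inhibitor known from bone, was counted 4 to 9 times in the TPS lines and at most 3 times in an EPS line. Nog, the extracellular inhibitor noggin, was tested and not called (log2 difference 2.53, edgeR adjusted p 0.136), and measured 0.0999, 4.69 and 1.49 CPM in the TPS lines and 0.261, 0.559 and 0.256 CPM in the EPS lines. Its highest value was again in TPS line 2, while TPS line 1 was below every EPS line. Bmper, a BMP-binding inhibitor, had every TPS line above every EPS line and missed the threshold narrowly, with a log2 difference of 2.40 and an edgeR adjusted p of 0.0518. Chrd (chordin) and Dand5 had every TPS line below every EPS line, with log2 differences of -0.64 and -0.54, and were not called. These genes were named after their values were seen.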
